A study of Homo sapiens with 6 samples.

Results

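The cytoplasmic ribosomal proteins are the proteins that, together with the ribosomal RNAs, form the large and the small subunit of the ribosome of the cytosol. The 77 genes described here were chosen by symbol: RPL or RPS followed by digits and at most 1 letter A or X, together with RPLP0, RPLP1, RPLP2 and RPSA. They are 77 of 60564 listed genes, of which 46 encode proteins of the large subunit and 31 proteins of the small subunit. All 77 passed the filter on low counts. RNA was sequenced from CAL27, an established human line of tongue squamous cell carcinoma. In 3 libraries, called OE (overexpression), the cells had been infected with lentivirus carrying CNTNAP2-203, which is named as a transcript of CNTNAP2. In the 3 control libraries, whose labels list the genotype as WT and whose descriptions name EGFP, they carried a control vector. Both groups were grown in DMEM with serum and selected as stable lines with 5 μg/ml puromycin for 2 weeks, so neither group is untreated. Whether the libraries of a group are separate cultures or infections is not stated, so p-values reflect no more than library-to-library spread, possibly technical.

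Each ribosome holds 1 copy of most of these proteins, with the acidic stalk proteins RPLP1 and RPLP2 as the known exception, and cells make them in matched amounts. Their messenger RNAs are among the most abundant in growing cells. Most begin with a C followed by a run of pyrimidines, the 5′ terminal oligopyrimidine (TOP) sequence. Through it their translation is controlled as a group by the kinase mTOR and the binding protein LARP1. Transcription of the genes depends on factors that bind close to the start site, and MYC is a known activator of ribosome production in tumours. Many of the genes also carry small nucleolar RNAs (snoRNAs), guides for the chemical modification of ribosomal RNA, inside their introns.

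The start sites of 14 members with high or low fold changes, the most displaced library values or a known role are shown to let the shared start be read directly. RPS15, 8th highest by fold change, lies outside the naming rule given with the processing. The sequences are from RefSeq (GRCh38.p14), 5′ to 3′, each with 40 bases before the annotated start and the first 20 bases of the transcript, and capitals mark the unbroken run of pyrimidines that begins at the start. In RPS26 and RPL32 the annotated start base is not a pyrimidine, so no letter is in capitals, and in RPL15 and RPS15 the run is 1 base.
RPL24: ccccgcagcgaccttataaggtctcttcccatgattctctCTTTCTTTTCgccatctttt
RPS3: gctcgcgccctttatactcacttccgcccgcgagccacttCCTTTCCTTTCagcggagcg
RPS24: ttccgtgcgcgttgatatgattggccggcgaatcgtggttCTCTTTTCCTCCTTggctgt
RPLP1: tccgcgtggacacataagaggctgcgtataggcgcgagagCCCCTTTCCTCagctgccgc
RPS10: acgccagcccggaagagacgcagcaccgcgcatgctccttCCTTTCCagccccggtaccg
RPLP0: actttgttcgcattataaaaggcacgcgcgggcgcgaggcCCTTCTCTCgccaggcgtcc
RPS19: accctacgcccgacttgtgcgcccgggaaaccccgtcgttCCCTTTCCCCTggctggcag
RPL13A: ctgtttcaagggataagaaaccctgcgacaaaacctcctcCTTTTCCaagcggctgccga
RPL31: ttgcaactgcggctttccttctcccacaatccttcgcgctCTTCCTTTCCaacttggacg
RPL3: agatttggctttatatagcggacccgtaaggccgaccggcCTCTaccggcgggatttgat
RPS26: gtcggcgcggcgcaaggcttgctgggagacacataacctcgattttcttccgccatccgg
RPL32: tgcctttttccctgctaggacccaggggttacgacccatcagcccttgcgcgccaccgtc
RPL15: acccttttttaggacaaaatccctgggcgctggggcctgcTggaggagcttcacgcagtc
RPS15: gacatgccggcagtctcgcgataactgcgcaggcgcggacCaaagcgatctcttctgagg

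The windows shown are RPL24 at chr3:101686699-101686758 (minus strand), RPS3 at chr11:75399478-75399537 (plus strand), RPS24 at chr10:78033823-78033882 (plus strand), RPLP1 at chr15:69452778-69452837 (plus strand), RPS10 at chr6:34426050-34426109 (minus strand) and RPLP0 at chr12:120201092-120201151 (minus strand). The others are RPS19 at chr19:41860215-41860274 (plus strand), RPL13A at chr19:49487568-49487627 (plus strand), RPL31 at chr2:101002249-101002308 (plus strand), RPL3 at chr22:39319604-39319663 (minus strand), RPS26 at chr12:56041878-56041937 (plus strand), RPL32 at chr3:12841546-12841605 (minus strand), RPL15 at chr3:23916505-23916564 (plus strand) and RPS15 at chr19:1438356-1438415 (plus strand). RefSeq promoter sequences matched 60 of the 77 members by symbol. A C at the annotated start with pyrimidines at each of the first 5 bases was present in 41 of the 60 (68.3%) and in 4.07% of 34796 promoters of the same length. The unbroken run from the annotated start was 14 bases in RPS24, 11 in RPS3, RPLP1 and RPS19, and 4 in RPL3. A run of 5 pyrimidines beginning with C lay within 5 bases of the annotated start in 49 of the 60 (81.7%) and in 21.0% of promoters. RPL32 and RPL3 were among these 49. In the 300 bases from 250 before to 50 after the start, the letters CCGGAAG, the core of sites for ETS factors, stood on either strand in 21 of the 60 members and in 10.2% of all promoters. AAGATGG, part of the site of YY1, stood in 13.3% and 5.83%, and GGGCGG, the letters of a GC box, in 55.0% and 44.9%. The letters TATAAA stood in 8.33% against 11.6%, and CACGTG, the E-box letters that MYC can bind, in 5.00% against 7.20%. Matches of CCGGAAG and AAGATGG can overlap in the shared AAG, and a match of letters does not show binding.

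The study compared OE with control cells to learn how CNTNAP2-203 promotes growth. By edgeR and limma-voom no ribosomal protein gene passed the test of that comparison, against 1.39% and 0.884% of all tested genes. DESeq2 called 3 higher (3.90%), against 4.31% of the genes with an adjusted p. The members as a group were high in a single OE library. Together the 77 genes took 5.09%, 4.75% and 5.01% of all counts in control replicates 1, 2 and 3 and 5.22%, 4.91% and 6.78% in OE replicates 1, 2 and 3. OE replicate 3 was thus above all other libraries, while OE replicates 1 and 2 lay within or just above the range of the controls. In bulk RNA a higher share of these transcripts and a lower amount of other RNA cannot be told apart. The median member was 0.05, -0.07 and 0.02 from the control mean in control replicates 1, 2 and 3, on the scale of log2 CPM (counts per 1e6 after TMM scaling). It was 0.11 and -0.00 in OE replicates 1 and 2 and 0.59 in OE replicate 3, while the median of all tested genes was at 0.00 in that library.

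**Figure D1:**
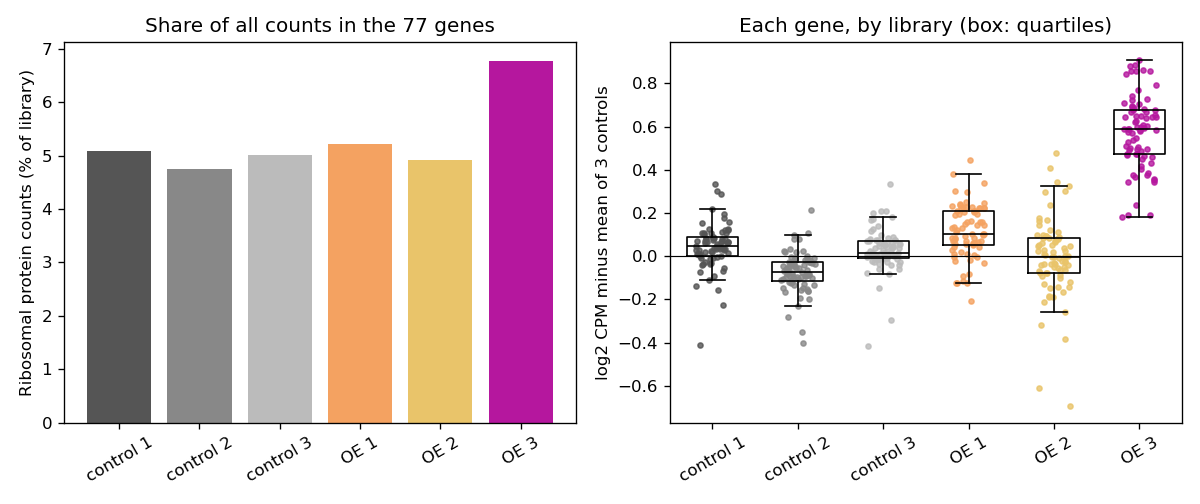
Left, bars give the share of each library's counts (percent) in the 77 ribosomal protein genes; right, each point is 1 gene's log2 CPM minus its mean over the 3 controls, with boxes for the quartiles and whiskers to the farthest point within 1.5 box lengths. The share is 6.78% in OE 3 and at most 5.22% in the other 5 libraries, and the median gene is at 0.59 in OE 3.

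Total counts were 36843190 to 42412703 a library, and OE replicate 3 had the lowest total, the fewest genes with a count (25336, against 26418 to 27002) and the lowest TMM factor (0.951, against 0.999 to 1.02). In that library the tested genes below the lower quartile of gene-model length had a median of 0.21 relative to the control mean, and those above the upper quartile one of -0.22, and in the other libraries both medians were between -0.05 and 0.06. Mitochondrial transcripts took 7.55% to 8.55% of counts and did not set it apart. All 7 listed squamous and epithelial markers passed the filter on low counts and none was called, against 1.39% of all tested genes. Of the 7, 3 had an unadjusted p under 0.05, against 17.2% of all tested genes. The 3 OE libraries lay above the controls in 2 of the 7, against 13.7% of all tested genes. They lay below the controls in 1 of the 7, and in 2399 of all 18786 tested genes. KRT5, KRT14 and KRT6A were at means of 1427 to 6500 CPM in OE, and TP63, CDH1, DSG3 and EPCAM at means of 145 to 246 CPM. TP63, CDH1 and DSG3 were lowest in OE replicate 3, at 70.9, 165 and 118 CPM. In 3 of the 7 markers OE replicate 3 was instead the highest of the 6 libraries. The median of the 7 was 0.04 relative to the control mean in that library. TP63 was at 187 to 258 CPM in the controls, and OE replicate 3 was at -1.44 relative to the other OE libraries on the log2 scale. The leukocyte markers PTPRC and LYZ and the endothelial markers PECAM1 and KDR were at means of at most 0.0588 CPM in either group. KDR had no count in any library. Not all listed markers of other cell types were as low as PTPRC, LYZ, PECAM1 and KDR. Those that passed the filter on low counts were 2 of 5 for leukocytes, 2 of 4 for endothelium and 4 of 6 for fibroblasts. None of these was called.

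The library-wide shift was found in almost every member. OE replicate 3 was the highest of the 6 libraries in 75 of 77 members (97.4%), against 28.7% of all tested genes. It lay above the mean of OE replicates 1 and 2 in 76 members, against 51.6% of all tested genes. The exceptions to the first count were RPL4 and RPL8, and to the second RPL4 alone. The median distance from the other OE libraries was 0.52 on the log2 scale (1st quartile 0.44, 3rd quartile 0.59). With the trend of each library on gene length removed it was 0.40, and OE replicate 3 then lay above the other OE mean in all 77. Across the 77 members this distance had a Pearson r of 0.05 with the log2 gene length and -0.22 with the log2 FPKM. These genes share libraries and depth, so both values are descriptions. Of the listed noncoding RNAs that describe RNA composition, 7 were tested, none was called and none was highest in OE replicate 3, where their median was -0.44 relative to the control mean. MALAT1 and NEAT1, long nuclear RNAs, were lowest in that library, at 480.1 and 388 CPM. The part of RNA composition, of the markers or of library preparation in the shift was not tested.

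In the edgeR quasi-likelihood test over all 18786 tested genes, 0 of the 77 members had an adjusted p under 0.05, against 1.39% of all tested genes. At an unadjusted p under 0.05, 8 members (10.4%) had a higher OE mean and none a lower one, against 9.41% of all tested genes that were higher and 17.2% in either direction. The 8 were RPS26, RPL24, RPS3, RPLP1, RPS10, RPS15, RPLP2 and RPS27A. By DESeq2 3 members (3.90%) were called higher, against 4.31% of the genes with an adjusted p, and by limma-voom none, against 0.884% called in either direction. The 77 log2 fold changes ran from -0.02 to 0.58 with a median of 0.26 (1st quartile 0.17, 3rd quartile 0.33), and 75 were positive (97.4%), against 49.6% of all tested genes. Their SEs were between 0.0992 and 0.384 with a median of 0.162, so the typical difference was less than 2 SEs. The median of all tested genes was -0.00.

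Without OE replicate 3 the median of the members was 0.05, and 54 of 77 log2 fold changes (70.1%) were positive, against 48.7% of all tested genes. No member was called, against 2.8% of all genes in that fit, and 8 had an unadjusted p under 0.05, all with a positive log2 fold change, against 9.04% of all genes. Without OE replicate 2 the median was 0.37 and all 77 were positive. In that fit 34 members (44.2%) had an unadjusted p under 0.05, against 9.98% of all genes that were higher. Again no member was called, and of all 19345 genes in that fit only 73 were called. Control replicate 2 was the lowest of the 6 libraries in 50 members and OE replicate 2 in 18. All 3 OE libraries lay above all 3 controls in 17 members (22.1%), against 13.7% of all tested genes. OE replicates 1 and 2 alone lay above the 3 controls in the same 17 members, against 19.1% of all tested genes. Besides members described below, these included RPS15, RPL36 and RPS9. RPL19 was the 1 member in which OE replicates 1 and 2 both lay below the controls.

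**Figure D2:**
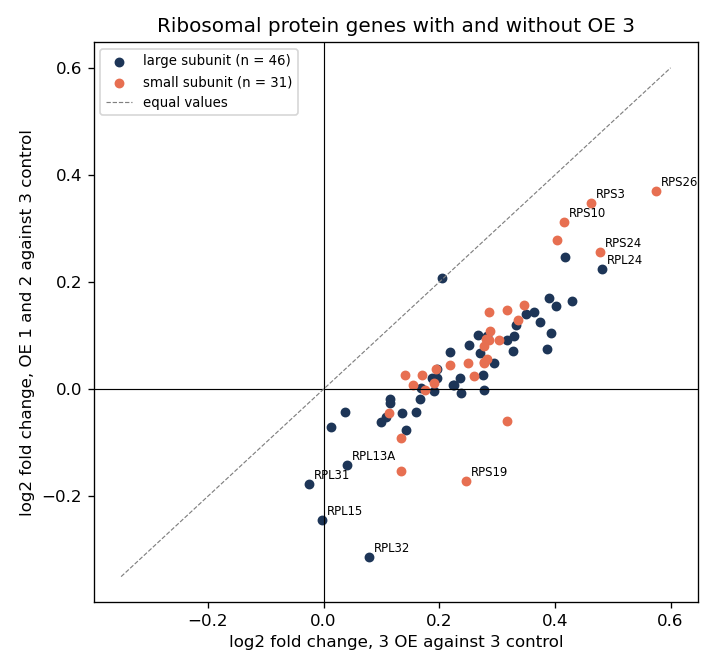
Each point is 1 ribosomal protein gene, with the log2 fold change of 3 OE against 3 control libraries on the x axis and that without OE 3 on the y axis; the dashed line marks equal values and colours mark the subunit. Nearly all points lie below the line: the median is 0.26 on x and 0.05 on y.

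RPS26, a protein of the small subunit near the exit of the messenger RNA channel, had the highest fold change of the 77. It was at 135, 119 and 130.0 CPM in control replicates 1, 2 and 3 and 174, 158 and 239.9 CPM in OE replicates 1, 2 and 3. Every OE library was above every control, and OE replicate 3 was the highest (log2 fold change 0.58, SE 0.160, edgeR adjusted p = 0.133). The log2 fold change was 0.37 without that library, with an adjusted p of 0.0753, and DESeq2 gave an adjusted p of 0.0297 over all 6. Over the alternatives tried its adjusted p was 0.0297 to 0.377. RPS26 has 23 named pseudogenes, whose counts came to 8.49% of its own.

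RPS3, which lies at the entry of the messenger RNA channel and also has a known role in DNA repair, was among the members with a high fold change also without OE replicate 3. Its values were 1294, 1213 and 1076 CPM in control replicates 1, 2 and 3 and 1391, 1656 and 1891 CPM in OE replicates 1, 2 and 3. The groups did not overlap, and OE replicate 2 lay between OE replicates 1 and 3 (log2 fold change 0.46, SE 0.136, edgeR adjusted p = 0.146). The log2 fold change of RPS3 was 0.35 without OE replicate 3. RPS10, a small subunit protein that is modified when ribosomes collide, was at 508, 474 and 515 CPM in control replicates 1, 2 and 3 and 582, 661 and 753 CPM in OE replicates 1, 2 and 3. Here too OE replicates 1 and 2 were above the controls by themselves (log2 fold change 0.41, SE 0.116, edgeR adjusted p = 0.134; 0.31 without OE replicate 3). DESeq2 called both, with adjusted p of 0.0497 and 0.0457, and over the alternatives these ran to 0.449 and 0.386. RPS10 overlaps the read-through gene RPS10-NUDT3, between which reads can be split.

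RPL24, a large subunit protein at the bridge between the subunits, was at 695, 601 and 619 CPM in control replicates 1, 2 and 3 and 784, 713 and 1176 CPM in OE replicates 1, 2 and 3. OE replicate 3 stood far above the other OE libraries, which exceeded the highest control by a small margin (log2 fold change 0.48, SE 0.187, edgeR adjusted p = 0.243; 0.22 without OE replicate 3). RPL35, a large subunit protein near the exit tunnel, had a log2 fold change of 0.43, and 0.16 without that library. RPS24, a small subunit protein whose gene is mutated in some families with Diamond-Blackfan anaemia, was at 636, 981 and 972 CPM in control replicates 1, 2 and 3 and 1071, 997 and 1539.7 CPM in OE replicates 1, 2 and 3. Its log2 fold change was 0.48, 0.30 without control replicate 1 and 0.26 without OE replicate 3. Relative to the mean of the other controls, which lay within 0.01 of each other, control replicate 1 was at -0.62 on the log2 scale.

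The stalk proteins RPLP0, RPLP1 and RPLP2, which recruit the elongation factors to the ribosome, had log2 fold changes of 0.39, 0.42 and 0.39. RPLP0 was at 824, 939 and 872 CPM in control replicates 1, 2 and 3 and 865, 991 and 1588 CPM in OE replicates 1, 2 and 3. OE replicate 1 lay within the controls and OE replicate 3 was the highest by a wide margin, so the fold change was 0.07 without it. RPLP1 was at 617, 596 and 657 CPM in control replicates 1, 2 and 3 and 718, 765 and 1015 CPM in OE replicates 1, 2 and 3, with no overlap between the groups (log2 fold change 0.42, SE 0.142, edgeR adjusted p = 0.19; 0.25 without OE replicate 3). For RPLP2 the means were 589.9 ± 141 against 450.5 ± 17.7 CPM (SD, n = 3), also without overlap (0.17 without OE replicate 3, adjusted p = 0.248).

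RPL5 and RPL11, which with 5S ribosomal RNA bind MDM2 when ribosome assembly fails, were among the members with little difference once OE replicate 3 was left out. RPL5 was at 678, 656 and 679 CPM in control replicates 1, 2 and 3 and 681, 618 and 870.5 CPM in OE replicates 1, 2 and 3. OE replicate 1 was level with the highest controls, OE replicate 2 below them and OE replicate 3 above them (log2 fold change 0.11, SE 0.135, edgeR adjusted p = 0.722; -0.05 without it). RPL11 was at 855, 759 and 775 CPM in control replicates 1, 2 and 3 and 855, 823 and 1319 CPM in OE replicates 1, 2 and 3, where OE replicate 1 equalled the highest control to the digits given (log2 fold change 0.33; 0.07 without OE replicate 3). RPS27A, made as a fusion with ubiquitin, had means of 697 ± 147 against 549 ± 19.6 CPM (SD, n = 3) with no overlap between the groups (log2 fold change 0.35, SE 0.149, edgeR adjusted p = 0.287). RPSA, which is also known as the laminin receptor, had means of 524 ± 99.7 against 421 ± 5.09 CPM (SD, n = 3; adjusted p = 0.291), and the 3 OE libraries lay above the controls.

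RPS6, the small subunit protein phosphorylated by S6 kinase below mTOR, was at 1455, 1336 and 1374 CPM in control replicates 1, 2 and 3 and 1467, 1406 and 1973 CPM in OE replicates 1, 2 and 3. OE replicates 1 and 2 were close to the controls (log2 fold change 0.22, SE 0.141, edgeR adjusted p = 0.465; 0.04 without OE replicate 3). RPS4X, encoded on the X chromosome, was at 806, 803 and 812 CPM in control replicates 1, 2 and 3 and 862, 813 and 1204 CPM in OE replicates 1, 2 and 3, and its controls were nearly equal. The fold change was 0.25, and 0.05 without OE replicate 3. RPL22, a large subunit protein that binds RNA outside the ribosome, had log2 fold changes of 0.23 and 0.01 with and without that library, and RPL10, which joins the large subunit late in its assembly, of 0.12 and -0.02.

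At the low end, RPL31 and RPL15, both of the large subunit, were the 2 members with a negative log2 fold change. RPL31 was at 316, 349 and 397 CPM in control replicates 1, 2 and 3 and 324, 305 and 416 CPM in OE replicates 1, 2 and 3. The groups overlapped through most of their range (log2 fold change -0.02, SE 0.146, edgeR adjusted p = 0.95; -0.18 without OE replicate 3). RPL15 was at 334, 327 and 323 CPM in control replicates 1, 2 and 3 and 353, 203 and 426 CPM in OE replicates 1, 2 and 3, with OE replicate 2 far below all others (log2 fold change -0.00, SE 0.247, edgeR adjusted p = 0.996). RPL8 and RPL3 of the peptidyl transferase region had log2 fold changes of 0.01 and 0.04. RPL13A, which can leave the ribosome to repress translation of inflammatory genes, had one of 0.04, with values of 1666, 1445 and 1536 CPM in control replicates 1, 2 and 3 and 1461, 1356 and 1961 CPM in OE replicates 1, 2 and 3. For RPL13A OE replicate 3 was above the controls and OE replicate 2 below them.

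**Figure D3:**
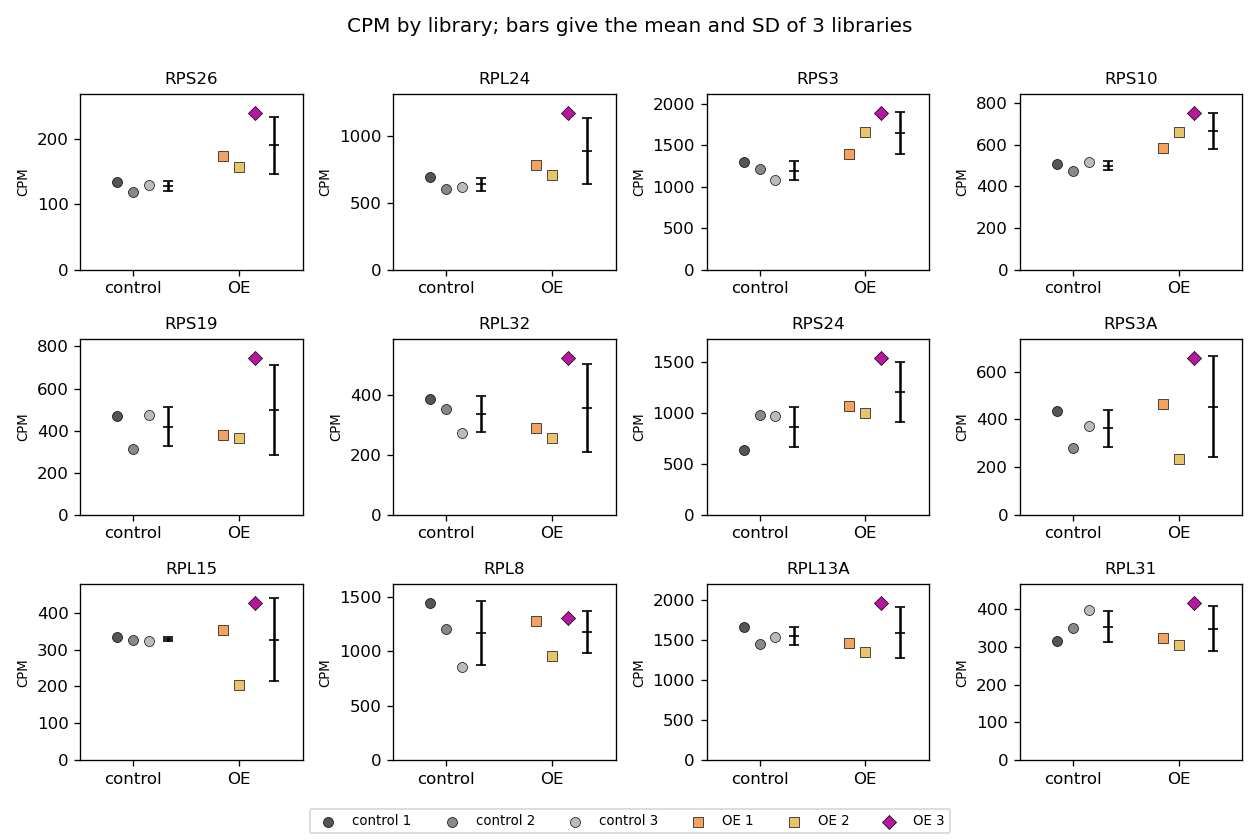
CPM of 12 ribosomal protein genes by library on axes that start at 0, with 3 control and 3 OE libraries per panel and a bar for the mean and SD of each group (n = 3). In RPS26, RPS3 and RPS10 each OE library is above each control; in RPS19 and RPL32 only OE 3 is, at 745 and 525 CPM.

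The displacement of OE replicate 3 was widest in RPS19, RPS3A, RPL32 and RPLP0. RPS19, a small subunit protein whose gene is the one most often mutated in Diamond-Blackfan anaemia, was at 471, 311 and 476 CPM in control replicates 1, 2 and 3 and 380.4, 367 and 745 CPM in OE replicates 1, 2 and 3. OE replicate 3 was 1.00 above the other OE libraries on the log2 scale, and these lay inside the range of the controls, where replicate 2 was at -0.61 relative to the others. RPL32 was at 389, 354 and 272 CPM in control replicates 1, 2 and 3 and 290.1, 257 and 525 CPM in OE replicates 1, 2 and 3. OE replicate 3 was 0.94 above the other OE libraries, which were close to the lowest control, and the log2 fold change turned from 0.08 to -0.31 without it. RPS3A, a small subunit protein with 29 named pseudogenes, was at 436, 280.3 and 373 CPM in control replicates 1, 2 and 3 and 465, 234 and 658 CPM in OE replicates 1, 2 and 3. OE replicate 2 was below every control and OE replicate 3 above them, so the SE of 0.384 was the largest of the 77, and the log2 fold change of 0.32 was -0.06 without OE replicate 3. The narrowest displacements were in RPL4 (-0.02), RPL3 (0.22), RPL8 (0.24) and RPS10 (0.28). RPL4, a large subunit protein of the exit tunnel, was at 1064, 988 and 1126 CPM in control replicates 1, 2 and 3 and 1302, 1152 and 1209 CPM in OE replicates 1, 2 and 3. Its 3 OE libraries lay above the controls without OE replicate 3 leading (log2 fold change 0.21, SE 0.0992, edgeR adjusted p = 0.341; 0.21 without OE replicate 3).

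Some members varied between libraries of 1 group on their own; these were named after their values were seen. Relative to the mean of OE replicates 1 and 3 on the log2 scale, OE replicate 2 was at -0.62 for RPS13, at -0.93 for RPL15 and at -1.24 for RPS3A. RPL8 was at 1441, 1207 and 855 CPM in control replicates 1, 2 and 3 and 1276, 955 and 1302 CPM in OE replicates 1, 2 and 3, so the controls spanned the whole range of the OE libraries. RPL14 was at 222, 213 and 307 CPM in control replicates 1, 2 and 3 and 224, 309.6 and 441 CPM in OE replicates 1, 2 and 3, with control replicate 3 and OE replicate 2 nearly equal. The SD of log2 CPM over 3 libraries had a median over members of 0.0921 in the controls and 0.310 in OE. It was larger in OE for 73 of 77 members, and for 65.0% of all tested genes.

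Per length, the members stood far above the typical gene, and their own levels spread widely. The median member was at 147 FPKM (fragments per kilobase of gene model, scaled to library depth; 1st quartile 90.9, 3rd quartile 246), and the median of all tested genes was 2.32 FPKM. RPS12 was the highest at 772 FPKM (range 682 to 998 over the 6 libraries), followed by RPL7A at 681 FPKM (range 603 to 829 over the 6 libraries) and RPL19 at 636 FPKM (range 581 to 753 over the 6 libraries). The ranges of these 3 genes over the libraries overlapped. RPS29 was the lowest at 8.18 FPKM, below RPL14 at 27.0 FPKM (range 20.6 to 39.7 over the 6 libraries) and RPL34 at 32.7 FPKM (range 28.7 to 44.8 over the 6 libraries), where the last 2 overlapped. The highest mean was 94.4 times the lowest. The deposited FPKM divide by gene models that hold all annotated exons, and by the GENCODE 29 exon union these ran from 767 bases in RPS12 to 9845 in RPS29. Across members the log2 FPKM had a Pearson r of -0.64 with the log2 union length, so the order of levels moves with the annotation.

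**Figure D4:**
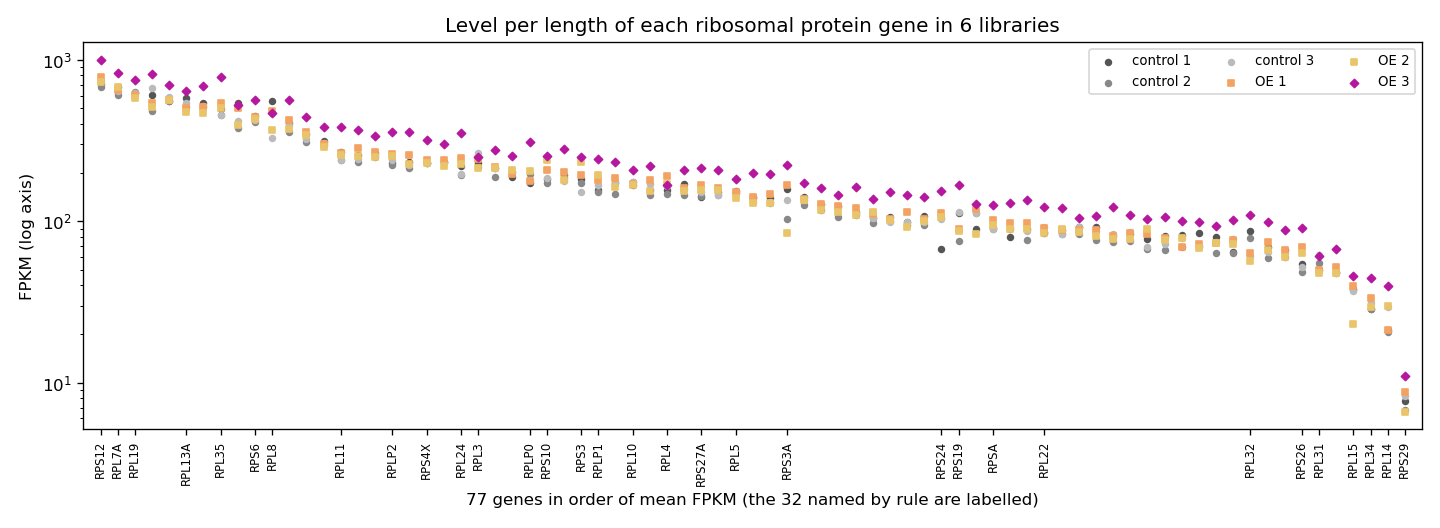
FPKM (log axis) of the 77 ribosomal protein genes in order of their mean, with 1 point per library and labels on the 32 genes chosen by the naming rule. The means run from 772 in RPS12 to 8.18 in RPS29, and the points of OE 3 lead in nearly all genes.

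The 46 large subunit members had a median log2 fold change of 0.23 with 44 positive, and the 31 small subunit members one of 0.28 with all 31 positive. Without OE replicate 3 these medians were 0.02 and 0.05. The 3 OE libraries lay above the controls in 6 of the 46 and in 11 of the 31, against 13.7% of all tested genes. The difference between the subunits was not tested. The 28 members with an annotated snoRNA gene inside them had a median of 0.21 and the 49 others 0.28 (0.01 and 0.05 without OE replicate 3). In 41 members a C stood at the start, with pyrimidines at each of the first 5 bases, as printed above for RPL24 and RPS3. They had a median of 0.28, and the 19 matched members without this start one of 0.25 (0.07 and 0.02 without OE replicate 3). Some of the 19, such as RPL3 and RPS15, begin with a shorter run of pyrimidines. In OE replicate 3 the median member was 0.57 above the control mean in the large and 0.60 in the small subunit, 0.56 in snoRNA hosts and 0.60 in the other members.

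Copies of these genes are many, and the sources used here do not say how reads mapping to several places were counted. The table lists 951 pseudogenes named after 74 of the members, of which 408 had at least 1 count. Their counts were 0.210% to 0.227% of the library in the other 5 libraries and 0.301% in OE replicate 3, so they were high where the members were high. In 11 members the pseudogene counts exceeded 10% of the member's own, with 68.8% for RPL9, 36.3% for RPL23A and 26.5% for RPSA, so levels of these are uncertain. When pseudogene counts were added to their member, no log2 fold change of the 77 moved by more than 0.0223. Of the 101 pseudogenes with enough counts to be tested none was called, against 1.39% of all tested genes. An unadjusted p under 0.05 was found in 6 of them, against 17.2% of all tested genes in either direction. Their median log2 fold change was 0.17 (-0.00 without OE replicate 3). Of the members 42 overlap another annotated gene, 35 of them one on the opposite strand, and libraries were made with a kit that keeps no strand information, so reads of both cannot be told apart.

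Of 10 tested genes of ribosomal proteins and paralogs outside the symbol rule, none was called, 1 had an unadjusted p under 0.05 and 8 were positive, with a median of 0.30 (0.12 without OE replicate 3). FAU, the precursor of a small subunit protein, was at 321, 287 and 322 CPM in control replicates 1, 2 and 3 and 382, 365 and 503 CPM in OE replicates 1, 2 and 3, above the controls in each OE library (adjusted p = 0.177). RPL39L, a paralog of RPL39, had a log2 fold change of 0.42 (adjusted p = 0.302), and RPL10L was not tested for lack of counts. The 78 genes of mitochondrial ribosomal proteins, which serve the separate ribosome of the mitochondrion, had none called, 33 with an unadjusted p under 0.05 (against 17.2% of all tested genes in either direction), 73 positive and a median of 0.32. In 39 of the 78 the 3 OE libraries lay above the controls, against 13.7% of all tested genes. Their median was 0.16 without OE replicate 3. In that fit MRPL33 was the 1 of the 78 called higher (edgeR adjusted p = 0.0472), against 2.8% of all genes called in either direction. The median of the 78 in OE replicates 1, 2 and 3 was 0.21, 0.12 and 0.58 above the control mean. The lowest p were in MRPL33 (39.1 ± 9.75 against 23.7 ± 0.802 CPM; adjusted p = 0.0961), MRPS34 (log2 fold change 0.52) and MRPL16 (0.41). A test of the difference between both kinds of ribosomal protein was not made.

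The 20 other listed TOP messenger RNAs, which encode elongation and initiation factors among others, had a median of 0.07, with 11 positive, none called and 4 with an unadjusted p under 0.05, near the 17.2% of all tested genes. EEF1B2, an exchange factor of elongation, was at 269 ± 52.5 against 206 ± 3.43 CPM (SD, n = 3; adjusted p = 0.216), NPM1, a nucleolar chaperone, had a log2 fold change of 0.32, and GAS5, a noncoding snoRNA host, one of -0.28. In OE replicate 3 the median of the 20 was 0.25 above the control mean. Of 27 tested ribosome biogenesis factors none was called, and 12 had an unadjusted p under 0.05 (against 17.2% of all tested genes). Of the 27, 22 were positive, and the median was 0.21 (0.14 without OE replicate 3). Without that library NCL alone of the 27 was called higher, against 2.8% of all genes called in either direction. NCL, the nucleolar protein nucleolin, was at 724, 761 and 727 CPM in control replicates 1, 2 and 3 and 1013, 957 and 1121 CPM in OE replicates 1, 2 and 3, with all OE libraries well above the controls (adjusted p = 0.0625, and 0.0268 without OE replicate 3). BYSL and MRTO4, assembly factors of the small and the large subunit, had log2 fold changes of 0.46 and 0.53 (adjusted p = 0.0943 and 0.106).

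Among 14 regulators of ribosomal protein synthesis none was called, 0 had an unadjusted p under 0.05, and the median was 0.01. RHEB, the activator of mTOR, had a log2 fold change of 0.31 (adjusted p = 0.308), EIF4EBP2, a repressor of cap-dependent translation, one of 0.22, and MDM2 one of -0.23. MYC was picked out for its single high library, at 23.1, 149 and 18.3 CPM in control replicates 1, 2 and 3 and 22.0, 17.1 and 20.1 CPM in OE replicates 1, 2 and 3. Control replicate 2 alone was high.

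**Figure D5:**
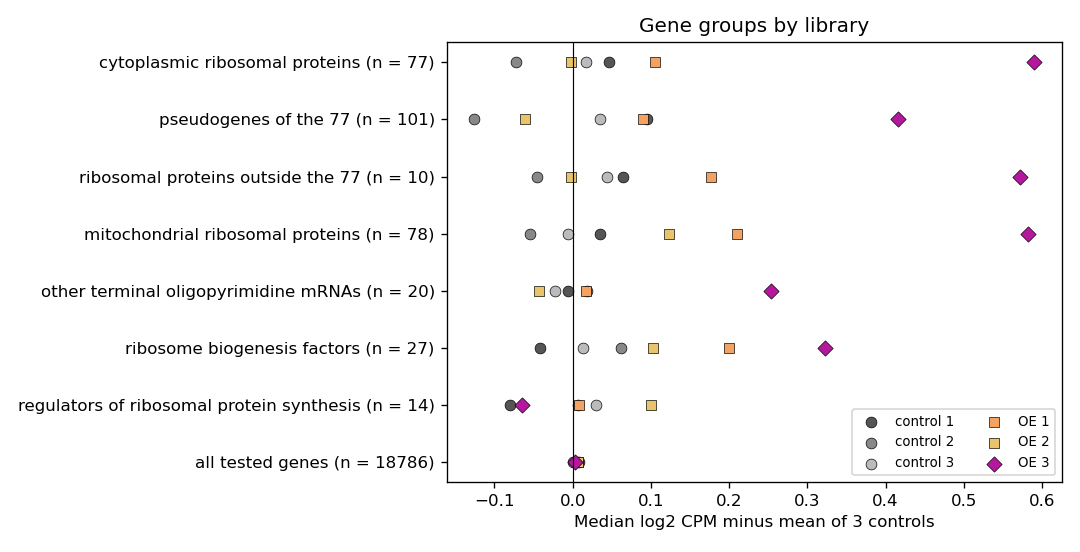
For each gene group (rows, with the number tested), points give the median over its genes of log2 CPM minus the mean of the 3 controls, 1 point per library. OE 3 is at 0.59 for the cytoplasmic ribosomal proteins, 0.58 for the mitochondrial ones and 0.25 for other TOP messenger RNAs, and all tested genes are near 0 in every library.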

How the data were processed

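Per the submitters' processing notes, reads were trimmed with Trim Galore 0.4.4 and the genome build was hg38; the sources used here do not give the aligner, counter, annotation or strand setting. The labels state rRNA depletion, a TruSeq v2 kit, and that the reverse reads of control replicate 1 were missing at submission. The authors deposited raw counts per gene, not normalized, and log2 values of FPKM. An offset of 1 in the deposited log2 FPKM was checked against the counts (implied lengths varied by 0.0779%, and by 2.56% with no offset). Groups came from sample titles.

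Counts (36843190 to 42412703 a library) were filtered with filterByExpr (minimum count 10; 18786 genes), scaled by TMM and tested with edgeR 4.0.16 in R 4.3.3 (robust quasi-likelihood, group as the only term), with Benjamini-Hochberg adjustment over all tested genes and a threshold of 0.05. Log2 CPM used a prior count of 2. Alternatives used DESeq2 1.42.0, limma 3.58.1, other scalings and filters, and left out each library. FPKM were recovered as the deposited power of 2 minus 1. Coordinates and overlaps are from GENCODE 29 (GRCh38); all 77 members matched by identifier. Named were the 5 highest and 5 lowest fold changes, 3 highest and 3 lowest FPKM, the 4 members with OE replicate 3 farthest above and below the other OE libraries, 12 members with known roles, and the 3 smallest p of each list. Members and lists were chosen with earlier results of these data known. Fits were also run on simulated counts with independent genes and no displaced library, so that run does not cover the shift of OE replicate 3. Values of a few listed genes are not reported here.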

Additional observations from a re-analysis of the deposited data

How the results depend on the processing

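All settings were tried on the counts of members called, on their median and on 32 named members. With 20 of 21 alternatives no member was called higher, and none was called lower with any. Some of these fits called few genes of any kind: 18, 14 and 18 without control replicates 1, 2 and 3. The fit without OE replicate 1 called 23, and that with the replicate block 17. DESeq2 called 3 members higher (RPS26, RPS3 and RPS10), 3.90% against 4.31% of the genes with an adjusted p. The median of the members stayed between 0.185 and 0.26 outside the fits that leave out a library. In those it ran from 0.05 (without OE replicate 3) to 0.37 (without OE replicate 2). Same-numbered libraries did not deviate together (correlations of -0.08, 0.05 and -0.03), and not every library correlated best with its own number; with the replicate block no member was called and the median was 0.23, and 0.20 with the length trend removed as well, while the calls over all genes fell from 262 to 17. Of 672 values of named members under alternatives, 629 kept their direction and side of the threshold and 40 changed sign, all of them uncalled. Outside the fits that leave out a library, log2 fold changes changed sign as follows. With upper quartile factors, RPL8 was -0.0041. With library totals only, RPL13A was -0.0070, RPL3 was -0.0061, RPL8 was -0.032. With TMM without ribosomal protein genes, RPL15 was 0.00076. With pseudogene counts added to members, RPL15 was 0.020. With length trend removed, RPL13A was -0.041, RPL8 was -0.066, RPL15 was 0.058. With replicate block with length trend removed, RPL19 was -0.00067, RPL32 was -0.021, RPL13A was -0.048, RPL8 was -0.046. With limma-trend, log2(FPKM + 1), RPL32 was -0.021, RPL13A was -0.018, RPL3 was -0.0051, RPL8 was -0.011. With limma-trend, log2(FPKM + 0.1), RPL32 was -0.022, RPL13A was -0.018, RPL3 was -0.0051, RPL8 was -0.011. With 1 library left out in turn, the range was -0.025 to 0.19 for RPL10, -0.14 to 0.14 for RPL13A, -0.24 to 0.25 for RPL15, -0.062 to 0.19 for RPL19, -0.042 to 0.12 for RPL3, -0.18 to 0.064 for RPL31, -0.31 to 0.27 for RPL32, -0.052 to 0.21 for RPL5, -0.17 to 0.19 for RPL8, -0.17 to 0.43 for RPS19 and -0.059 to 0.63 for RPS3A. The cause of these changes was not tested. The number of libraries a group limits the precision, with a median SE of 0.162 on the log2 scale over the members.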
